A study of Mus musculus with 2 samples.

Results

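Neurons that express Tac2, the gene for neurokinin B, were picked out of droplet single-cell RNA sequencing of reporter-positive hypothalamic cells from 10-day-old mice. A cell was taken when it had Tac2 at 5 or more UMIs per 10000, at least 1 UMI (unique molecular identifier, a counted transcript) of Esr1, Tacr3, Nr5a2 or Kiss1, under 10 per 10000 each of Agrp, Pomc and Sst, and 5 or more per 10000 of Snap25, Stmn2 and Syt1 together. This gave 190 of 7418 cells, 93 of 3939 in the dHet library and 97 of 3479 in the control library. The working name for these cells was Tac2 and Kiss1 (KNDy) neurons. They are called Tac2 neurons here, because Kiss1 could hardly be measured in these files. The selection does not place the cells in a nucleus of the hypothalamus.

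The series title names hypothalamic neurogenesis after birth and sensitivity to leptin as what Irx3 and Irx5, 2 homeobox genes of the Iroquois family, were studied for. The dHet mice were Ins2-Cre;tdTomato+/-;Irx3/5+/-, heterozygous for both genes, and the control mice were Ins2-Cre;tdTomato+/-. All were of the CD-1 strain at postnatal day 10, and all carried the Ins2-Cre driver and the tdTomato reporter, so only cells with a history of Cre activity from the Ins2 promoter entered the sorter. Tissue from 5 mice was pooled for each genotype, and each pool gave 1 library. No difference between the genotypes could therefore be set against variation between animals: every interval below is a 95% interval that covers counting error only, and no p-value is given. UMIs were counted from the 3′ ends of transcripts, which do not check a heterozygous deletion.

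As background, KNDy neurons of the arcuate nucleus co-express kisspeptin, neurokinin B and dynorphin. Neurokinin B acts on its receptor Tacr3 on neighbouring KNDy neurons, dynorphin acts on the kappa opioid receptor Oprk1, and the kisspeptin they release drives the pulses of gonadotropin-releasing hormone that govern puberty and fertility. They are glutamatergic, carry receptors for sex steroids, and take part in feedback by sex steroids.

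The Tac2 neurons held 1608731 UMIs in the dHet library and 1937772 in the control library, with a median of 16749 and 19941 UMIs per cell. Other neurons (over the neuronal floor and under 10 per 10000 of Agrp and Pomc) had medians of 19688 in dHet and 21163 in control, and cells under the neuronal floor had 7330.5 and 8246.5. Median mitochondrial shares of the Tac2 neurons were 5.94% in dHet and 4.77% in control. The libraries shared 4 cell barcodes, none of them among the Tac2 neurons, and 1 Tac2 neuron, in the control library, was called a doublet. Irx3 had 0 UMIs in dHet Tac2 neurons and 3 in control Tac2 neurons, and Irx5 had 0 in both, and a count of 0 allows up to 3, so neither gene could be followed in these cells at this depth. Lepr, the leptin receptor, had 1 UMI in each library's Tac2 neurons.

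Tac2 neurons made up 3.05% of dHet neurons (93 of 3053 cells, exact interval 2.47 to 3.72%) and 3.93% of control neurons (97 of 2467 cells, 3.20 to 4.78%). The ratio was 0.775, with an interval of 0.577 to 1.04 that includes 1. Among all sorted cells the shares were 2.36% in dHet and 2.79% in control, a ratio of 0.847 (0.630 to 1.14). The interval among neurons left out 1 under stricter selections, with a ratio of 0.711 (0.512 to 0.985) at a Tac2 minimum of 20 and 0.704 (0.501 to 0.988) with 2 or more of the 4 other genes, and when the selection was made on cells thinned to 8000 UMIs, at 0.665 (0.484 to 0.911). These are shares of reporter-positive cells that survived the sort, not of the arcuate nucleus.

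Tac2 was the value that chose the cells, so its level is a description. The Tac2 neurons held 88.4% of all Tac2 UMIs of the dHet library and 94.3% of those of the control library. Per cell, Tac2 ran from 5.76 to 183 per 10000 with a median of 61.1 in dHet, and from 6.49 to 160 with a median of 69.6 in control. The 3 cells nearest the threshold lay at 5.76, 6.51 and 6.61 inside and 4.87, 4.77 and 4.11 outside in dHet, and at 6.49, 7.21 and 7.91 inside and 4.28, 4.13 and 3.38 outside in control. In each library 115 neurons reached the Tac2 minimum, and 22 dHet and 18 control cells of these were left out, 21 and 16 of them only because they had no UMI of the 4 other genes. Esr1 was the usual way in: 86 dHet and 86 control cells had a UMI of it, and for 20 dHet and 12 control cells it was the only one of the 4.

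The Kiss1 count in these files is uncertain. The whole table held 6 Kiss1 UMIs in dHet cells and 8 in control cells, 1 per cell, and every one of these cells was a Tac2 neuron. In the authors' feature list, 2 overlapping gene models carry the symbol Kiss1. In GENCODE M21 (GRCm38) the model ENSMUSG00000116158, at chromosome 1, 133321875 to 133329901 on the plus strand, shares all 779 of its exon bases with other counted models on the same strand, and it had 0 UMIs in both libraries. The model ENSMUSG00000115958, which starts at 133309827 and ends at 133329722 and shares 583 of its 741 exon bases, held all of the UMIs. Cell Ranger as a rule does not count a read that lies in exons of more than 1 gene, so these counts do not measure how much kisspeptin transcript the cells had. Kiss1 UMIs were found in 6.45% of dHet and 8.25% of control Tac2 neurons.

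The other markers of the working name were higher in Tac2 neurons than in other neurons in both libraries, as the plot of marker levels by cell class shows. Nhlh2, a basic helix-loop-helix factor that the selection did not use, had 184 CPM (UMIs per 1000000 UMIs) in dHet and 211 in control Tac2 neurons, against 6.15 CPM in dHet and 6.85 in control other neurons. A UMI of it was found in 87.1% of dHet and 88.7% of control Tac2 neurons, against 0.226% and 0.395% of non-neuronal cells. With every cell thinned to 8000 UMIs the shares were 64.8% and 75.5% of Tac2 neurons and 0% of non-neuronal cells in both libraries. Esr1, oestrogen receptor alpha, had 142 CPM in dHet and 155 in control Tac2 neurons, and Tacr3, the neurokinin B receptor, had 46.6 and 59.9 CPM. A UMI of Esr1 or Tacr3 could admit a cell, so their levels describe the selection and do not check the name. Slc17a6, the vesicular glutamate transporter VGLUT2, was found in 96.8% of dHet and 95.9% of control Tac2 neurons, against 3.16% and 2.17% of non-neuronal cells. It set them less apart from other neurons, with 400 CPM in dHet and 368 in control against 243 and 216. These are ratios of 1.65 and 1.70, short of 2-fold. Pdyn, which encodes dynorphin, did not stand out: it had 31.1 CPM in dHet and 40.3 in control Tac2 neurons, beside 30.9 and 27.0 CPM in other neurons. The 8 microglial and vascular markers summed to 4 UMIs in dHet and 2 in control Tac2 neurons, and the 8 astrocyte markers summed to 194 CPM in dHet and 156 in control, beside 260 and 231 CPM in other neurons. The 8 tanycyte markers went the other way, at 114 CPM in dHet and 82.6 in control Tac2 neurons, beside 58.9 and 59.7 CPM in other neurons. Scn7a, a sodium channel gene of that list, had a UMI in 33 dHet and 36 control Tac2 neurons, Rax in 3 and 2, and Adm had 0 UMIs in both libraries. The part of such transcripts in the results was not tested.

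**Figure D1:**
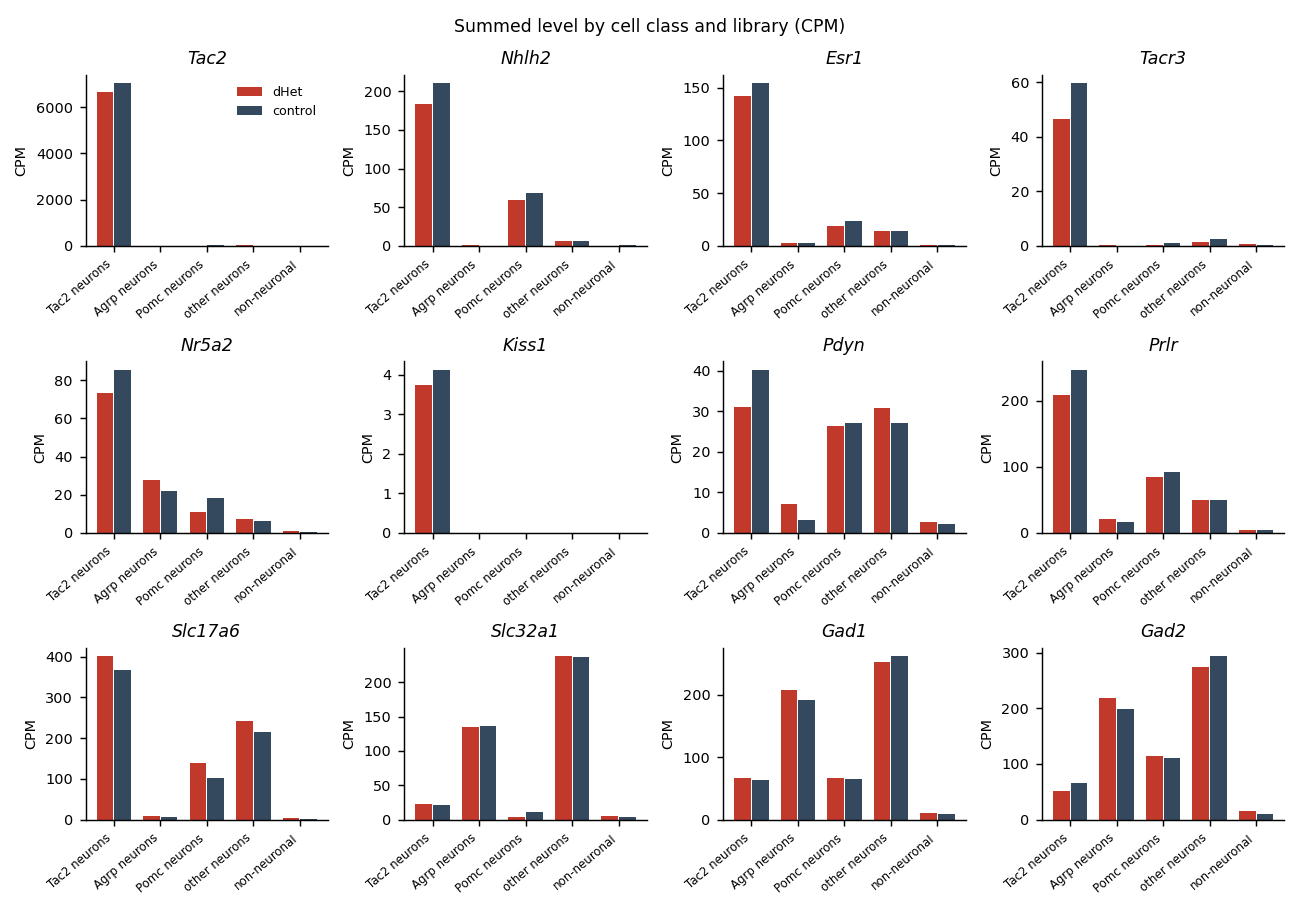
Summed level of 12 genes in CPM (y axis, each panel with its own scale from 0) in 5 cell classes (x axis), with dHet bars left of control bars. Tac2, Nhlh2, Esr1, Tacr3 and Prlr stand highest in Tac2 neurons in both libraries, while Pdyn is close to its level in other neurons and Kiss1 rests on 6 and 8 UMIs. Tac2, Esr1, Tacr3, Nr5a2 and Kiss1 were used to select the cells.

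Of 5563 genes with at least 100 UMIs over the Tac2 neurons of both libraries, 84 (1.51%) were 2-fold or more higher than in other neurons in each library and 29 (0.521%) were 2-fold or more lower. The selection used these cells' counts, so this contrast describes them and tests nothing. After Tac2 and Nhlh2, the next in log2 ratio with 5 CPM added was Sphkap, an anchoring protein for protein kinase A, with 273 CPM in dHet and 258 in control Tac2 neurons against 22.7 and 22.8 in other neurons. Lhfpl1, a membrane protein of the LHFPL family encoded on chromosome X, had 41.7 and 52.1 CPM in Tac2 neurons against 0.315 and 0.328 in other neurons, which is 132-fold in dHet and 159-fold in control. Further genes were Tacr3, Esr1, Nr5a2 (a nuclear receptor, 10.4-fold and 13.5-fold), the mitochondrial ribosomal protein Mrps11, the kinase Stk26, the LIM homeobox factor Lhx5 (10.7-fold and 9.37-fold), Lrrc17, the dopamine receptor Drd2 (13.7-fold and 11.2-fold), the carboxypeptidase inhibitor Lxn and the small GTPase Rap2c.

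Grouped by role, the transcription factors gave the most members. Among 12 measured well enough, 5 were 2-fold higher in both libraries, Nhlh2, Nr5a2, Sox14, Tbx3 and Pou2f2, and none was 2-fold lower. Of these 5, Nr5a2 was also a selection gene, so its level describes the selection. Sox14 had 137 CPM in dHet and 156 in control Tac2 neurons, against 32.7 and 32.9 in other neurons. Among the steroid and prolactin receptor genes, Esr1, also a selection gene, and Prlr were 2-fold higher. Prlr, the prolactin receptor, had 208 CPM in dHet and 247 in control Tac2 neurons, against 49.6 and 50.2 in other neurons.

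Of 4 fast transmitter genes measured well enough, Gad1 and Gad2, the enzymes that make GABA, were 2-fold lower in both libraries. Over all genes 1.51% were 2-fold higher and 0.521% lower. Gad2 had 51.6 CPM in dHet and 66.6 in control Tac2 neurons against 275 and 293 in other neurons. Among 16 genes of peptide processing, the prohormone convertase Pcsk1 was higher, at 110 CPM in dHet and 147 in control against 32.8 and 33.1, and its relative Pcsk2 was lower, at 27.4 and 45.9 against 123 and 142. Among 18 ion channel genes, Trpc5 (4.74-fold in dHet and 4.58-fold in control) and Kcnd2 (2.30-fold and 2.14-fold) were higher. Trpc5 is a cation channel and Kcnd2 carries A-type potassium current. Among 22 transmitter receptor genes, the NMDA receptor subunit Grin2a was 2-fold higher and the GABA-A receptor subunit Gabra5 2-fold lower. The puberty-linked genes Dlk1 and Nell2 were the only 2 of 6 past 2-fold, and both were lower than in other neurons.

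Not all of the Tac2 neurons looked alike. Slc17a6 without Slc32a1, the vesicular GABA transporter, was detected in 78 of 93 dHet and 87 of 97 control cells, and both transporters in 12 and 6. Slc32a1 alone was detected in 2 dHet and 3 control cells. Of these 5 cells 4 held 17 to 94 UMIs of Gal, the galanin gene, and none of the 5 had a UMI of Nhlh2. Gal stood at 772 CPM in the 2 dHet and 2302 in the 3 control cells of this kind, against 10.6 and 11.6 CPM in the cells with Slc17a6 alone. A further cell in the dHet library held 282 UMIs of Cga and 7 of Tshb, the genes for thyrotropin subunits that mark the pars tuberalis, together with 202 of Chga. Another dHet cell held 375 UMIs of Vip. Chga, Vip and Gal, which rest on such cells, are given with and without them.

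Tac2 level divided the neurons further. Between 5 and 20 per 10000 lay 20 dHet and 14 control cells, between 20 and 100 lay 50 and 57, and above 100 lay 23 and 26. The cells under 20, set against those above, had less of Lhfpl1 (3.32 against 50.5 CPM in dHet, 7.30 against 59.5 in control), of the complement-like secreted protein C1ql1 (0 against 33.7 in dHet, 7.30 against 57.1 in control) and of the tetraspanin Cd9 (6.64 against 97.9 in dHet, 21.9 against 97.4 in control). They had more of Id4, an inhibitor of helix-loop-helix factors (153 against 55.8 CPM in dHet, 204 against 66.7 in control), and of the secreted glycoprotein Olfm1 (206 against 74.2 in dHet, 182 against 71.5 in control). In both libraries these 5 genes lay apart by more than 1.5-fold. Nr5a2 went the other way from Tac2 at the upper end, with 102 CPM in dHet and 102 in control cells of the middle band and 29.4 and 55.4 CPM in cells above 100.

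A further division ran between cells of female and male type. Xist is the RNA transcribed from the inactive X chromosome of female cells, and Ddx3y, Eif2s3y, Kdm5d and Uty lie on the Y chromosome. Cells with 2 or more Xist UMIs and none of the 4 Y-linked genes form the Xist class, and cells with a Y-linked UMI and at most 1 of Xist form the Y class. Among Tac2 neurons the Xist class held 60 dHet and 57 control cells and the Y class 24 and 33, with 9 and 7 in neither. The pools' numbers of female and male pups are not given in the labels, and a pool has 1 value per class, so within each library the classes were compared without a test.

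Tac2, the value that chose the cells, was higher in the Xist class in both libraries, which is a description. In dHet it stood at 8049 CPM in the Xist class and 4560 in the Y class (ratio 1.77, 1.68 to 1.86), and in control at 8967 and 4312 (ratio 2.08, 1.996 to 2.17). Other neurons, from which the selection took most Tac2, went the other way, with ratios of 0.575 in dHet and 0.691 in control. The median cell had 78.1 per 10000 in the Xist class and 45.8 in the Y class in dHet, and 86.2 and 35.2 in control. The ranges overlapped widely, from 5.76 to 183 in the Xist class and from 7.59 to 109 in the Y class in dHet, and from 12.9 to 160 and from 6.49 to 112 in control. Of the Tac2 neurons above 100 per 10000, 21 of 23 in dHet and 23 of 26 in control belonged to the Xist class, and 1 and 2 to the Y class.

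Esr1 and Prlr were higher in the Xist class in both libraries. Esr1 had 182 CPM in the Xist class and 82.8 in the Y class in dHet, and 202 and 90.0 in control, ratios of 2.20 (1.53 to 3.25) and 2.24 (1.69 to 3.02). Other neurons had ratios of 0.990 and 1.08. Esr1 also helped to admit cells, and its ratio shrank when each cell was thinned to 8000 UMIs, to a log2 value of 0.61 in dHet and 0.50 in control beside 1.09 and 1.12 unthinned. Prlr had 258 CPM in the Xist class and 108 in the Y class in dHet, and 283 and 184 in control, ratios of 2.39 (1.74 to 3.34) and 1.53 (1.25 to 1.90). For Nhlh2, Tacr3, Pdyn, Sox14 and Drd2 at least 1 library's interval included 1.

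**Figure D2:**
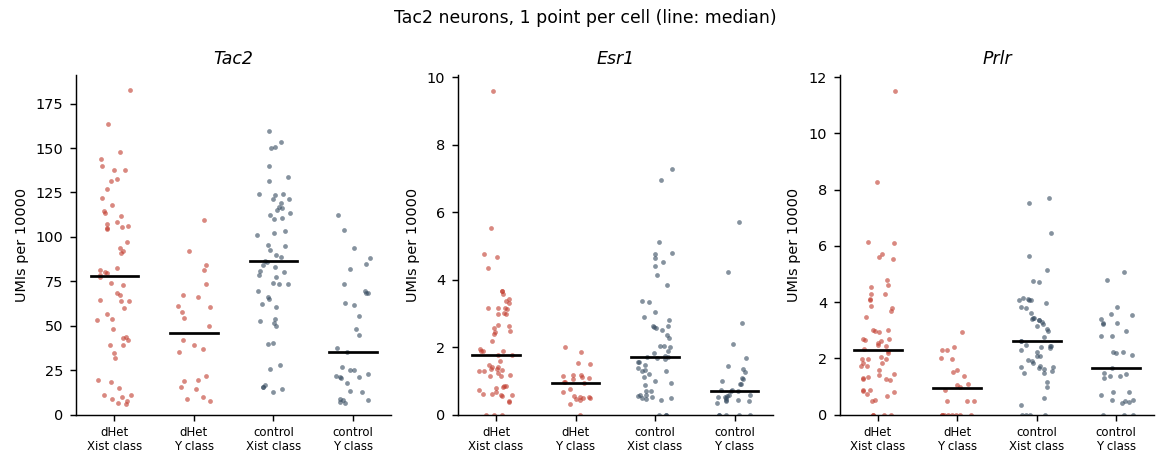
UMIs per 10000 of Tac2, Esr1 and Prlr (y axes, from 0) in single Tac2 neurons (points) by library and class, with the median as a line. Xist class medians lie above Y class medians for Tac2, Esr1 and Prlr in both libraries, with overlapping ranges.

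Across the 5563 genes, 92 (1.65%) were 1.5-fold or more higher in the Xist class in both libraries and 71 (1.28%) were lower. These counts include Xist and Eif2s3y, which helped to define the classes. Of the genes higher, 11 lie on chromosome X (11.96%), Xist among them, and of those lower also 11 (15.5%), beside 4.26% of all genes placed. Leaving Xist aside, the highest was Lhfpl1, at 60.5 CPM in the Xist class and 4.60 in the Y class in dHet, and 81.3 and 7.26 in control. A UMI of Lhfpl1 was seen in 29 of 60 Xist class and 2 of 24 Y class cells in dHet, and in 37 of 57 and 3 of 33 in control. Cd9 followed, at 116 CPM in the Xist class and 16.1 in the Y class in dHet and 140 and 10.2 in control. Mrap2, an accessory protein of melanocortin receptors, was 3.07-fold higher in dHet (2.06 to 4.74) and 3.15-fold higher in control (2.36 to 4.28). The neurofilament gene Nefm, C1ql1, Tmem255a, Trp53i11, Speg, the synaptotagmin Syt17, the heparan sulphate enzyme Hs3st1 and the galactosyltransferase B3galt1 were between 2.39-fold and 3.95-fold higher. Their ratios in other neurons lay between 0.609 and 1.36. The difference in C1ql1 was not seen in dHet once each cell was thinned to 8000 UMIs and the classes were called on the thinned counts. Its log2 ratio there was -0.025.

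Genes higher in the Y class included Lmo3, a LIM-only cofactor, at 26.6 CPM in the Xist class and 179 in the Y class in dHet and 26.5 and 123 in control. Brs3, a bombesin-like receptor encoded on chromosome X, had 18.4 CPM in the Xist class and 161 in the Y class in dHet, and 12.4 and 47.9 in control. Fxyd7, a brain regulator of the sodium pump, had ratios of 0.304 (0.242 to 0.381) in dHet and 0.299 (0.238 to 0.375) in control. Id4, the cadherins Cdh4 and Cdh13, the X-linked protocadherin Pcdh11x, Lbhd2, the coregulator Zmiz1, the X-linked Frmpd3 and the calmodulin-binding protein Nrgn had ratios between 0.203 and 0.376. In other neurons the ratios of these 11 genes lay between 0.662 and 1.28. The plot of class ratios shows how far the intervals of the Tac2 neurons lie from the values of other neurons.

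**Figure D3:**
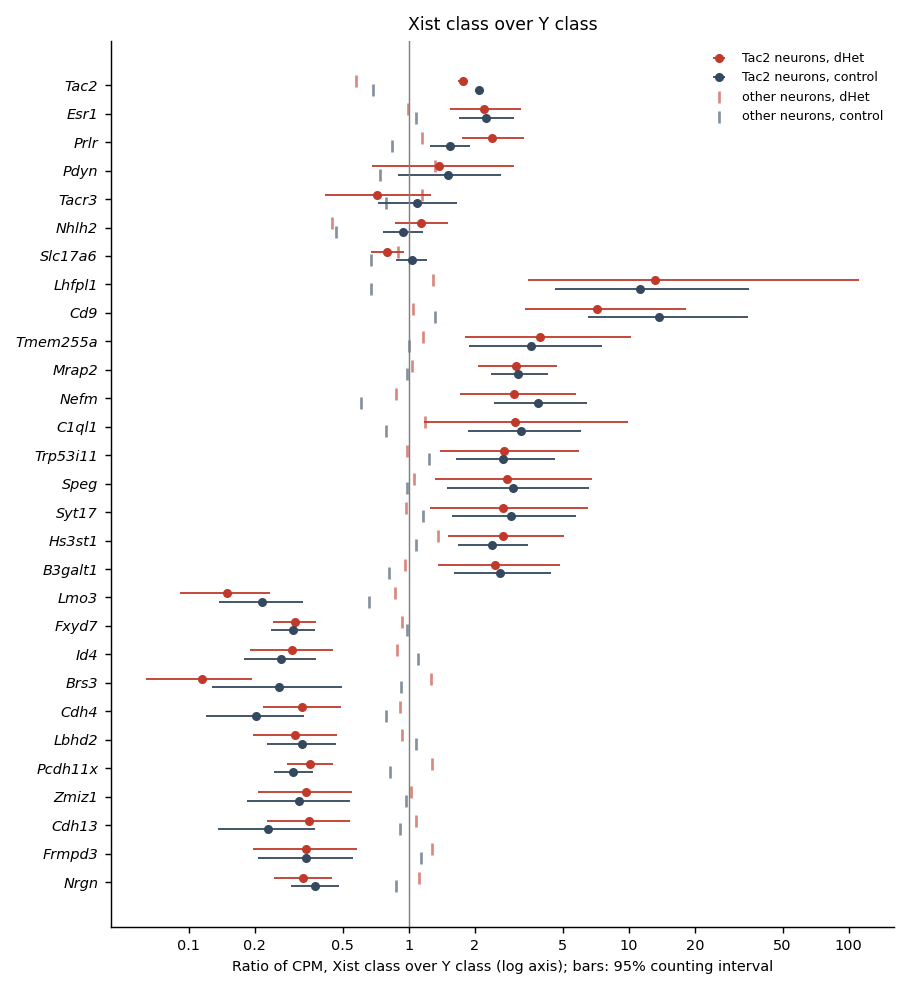
Ratio of CPM in the Xist class over the Y class (x axis, logarithmic) for fixed and top-ranked genes (y axis) in Tac2 neurons of both libraries (points with 95% counting intervals) and in other neurons (ticks). From Lhfpl1 to B3galt1 the ratios are above 1 and from Lmo3 to Nrgn below 1 in both libraries, while for these genes other neurons lie between 0.609 and 1.36.

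Low-Tac2 cells and Y class cells shared genes: Lhfpl1, Cd9 and C1ql1 were lower in both and Id4 higher in both, each against its counterpart. So the classes were also compared among cells with 20 to 100 Tac2 per 10000 only. There the Xist class held 29 dHet and 29 control cells and the Y class 16 and 23. Within this band, whose limits bound Tac2 itself, the Tac2 ratio was 1.17 in dHet (1.10 to 1.24) and 1.40 in control (1.33 to 1.47). Lhfpl1 was 9.89-fold (2.52 to 85.2) and 6.53-fold (2.58 to 21.2) higher, and Esr1 was 2.35-fold (1.499 to 3.81) and 1.92-fold (1.29 to 2.90) higher. Brs3 stood at 0.0838 (0.0346 to 0.176) in dHet and 0.149 (0.0372 to 0.437) in control.

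By gene list, Bdnf, Junb and Fos were the 3 of 9 immediate early genes that were 1.5-fold higher in the Xist class in both libraries. Over all genes 1.65% were higher and 1.28% lower. Fos had 109 CPM in the Xist class and 36.8 in the Y class in dHet and 169 and 49.4 in control, beside ratios in other neurons of 1.12 in dHet and 3.56 in control. None of 20 respiratory chain, 13 cholesterol synthesis or 11 heat shock genes passed 1.5-fold in both libraries in either direction. Of 20 genes of immature neurons and neurite growth, 1 did, the imprinted gene Nnat, which was lower in the Xist class.

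Between the genotypes, 108 of 5563 genes (1.94%) lay past 1.5-fold in Tac2 neurons, 26 (0.467%) higher in dHet and 82 (1.47%) lower. Past 1.5-fold, here and below, refers to the log2 ratio with 5 CPM added. The median log2 ratio over all 5563 genes was -0.05, and under a scaling by the median of ratios the split was 43 higher to 55 lower. The plot of gene lists shows that most list members lay within 1.5-fold. The Xist class made up 64.5% of dHet and 58.8% of control Tac2 neurons, and 64.9% of dHet and 46.9% of control other neurons, so the 2 pools differ in this respect. Its part in the genotype ratios was not tested, and log2 ratios within each class are given for part of the genes described. Of the 108 genes, 13 (12.04%) were also among the 163 genes that differed between the classes, which is 7.98% of those.

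**Figure D4:**
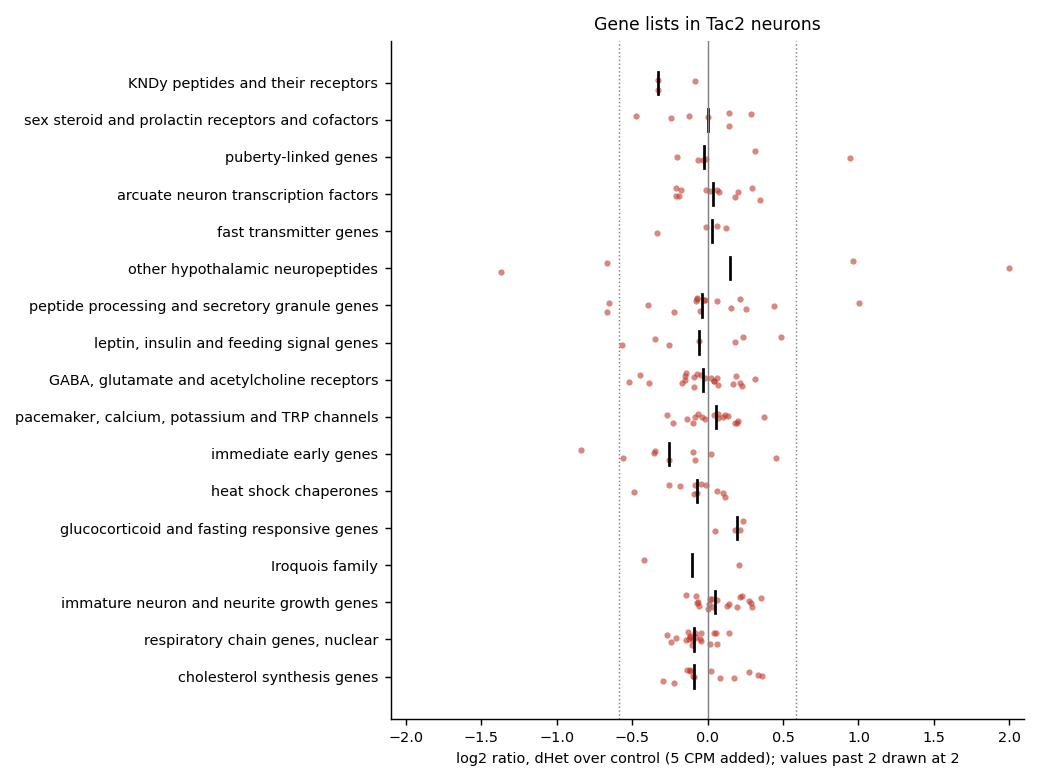
Log2 ratio of CPM, dHet over control with 5 CPM added (x axis), for the measured genes of 17 lists (points) in Tac2 neurons, with each list's median (black line) and 1.5-fold (dotted lines). Medians lie between -0.33, for the 3 KNDy genes measured, and 0.20, for 4 glucocorticoid and fasting responsive genes, and that of the immediate early genes is at -0.25.

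Of 10 listed KNDy peptides and receptors, 3 were measured well enough, and these lay within 1.5-fold between the genotypes. Among these 3, Tac2 and Tacr3 were used to select the cells in both libraries, so their ratios are descriptions. Tac2 stood at 6651 CPM in dHet and 7061 in control, a ratio of 0.942 (0.918 to 0.966). Tacr3 had a ratio of 0.779 (0.575 to 1.05) and Pdyn of 0.772 (0.530 to 1.11), so that a difference of this size was not detectable at this depth. The log2 ratio of Tacr3, -0.33, was past 1.5-fold (0.58) within the Xist class, at -0.64, and with cells thinned to 8000 UMIs, at -0.70, and it was -0.090 within the Y class. Esr1 stood at 0.915 (0.767 to 1.09), Nhlh2 at 0.872 (0.748 to 1.02) and Prlr at 0.842 (0.731 to 0.971). The counts that follow include Tac2, Tacr3, Esr1 and Nr5a2, which the selection used. None of the 3 KNDy genes, 7 steroid and prolactin receptor genes or 12 transcription factors measured well enough lay past 1.5-fold in either direction. Over all genes 1.94% did, and lists this short can hold none at that share. Of 6 puberty-linked genes, 1 did: Dlk1, higher in dHet, with 54.4% of its UMIs in 5 cells.

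Among genes higher in dHet, Brs3 had 59.1 CPM in dHet and 26.8 in control, a ratio of 2.20 (1.55 to 3.15), beside 0.846 in other neurons. Its log2 ratio was 0.43 within the Xist class and 1.65 within the Y class, where most of its UMIs lay. Grpr, the gastrin-releasing peptide receptor, had 50.3 and 26.3 CPM (ratio 1.91, 1.33 to 2.77), with log2 ratios of 0.71 and 1.32 within the Xist and Y classes. Igfbp5, a binding protein for insulin-like growth factors, had 85.2 CPM in dHet and 41.3 in control, but its log2 ratio of 0.96 was 1.64 within the Xist class and 0.16 within the Y class. The adhesion molecules Alcam (ratio 1.66, 1.37 to 2.01) and Cdh4 (1.73, 1.31 to 2.28) were higher in both classes, with log2 ratios of 1.08 and 0.81 for Alcam and 1.06 and 0.53 for Cdh4. Alcam stayed past 1.5-fold under 9 of 11 alternatives, with 0.47 without cells that had a Slc32a1 UMI, and Cdh4 under 6, with 0.33 when thinned. Usp12, Dap3, Mum1l1, Ildr2, Tmem29 and Serpine2 completed the 12 highest, with ratios between 1.60 and 1.76. None of these 6 stayed past 1.5-fold under all 11 alternatives, and Serpine2 had a log2 ratio of -0.013 within the Y class.

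Chga, the granule protein chromogranin A, had 388 CPM in dHet and 191 in control, but 202 of its 625 dHet UMIs came from the single Cga-rich cell. The 6 pars tuberalis markers, Chga among them, summed to 577 CPM in dHet and 197 in control Tac2 neurons. Without the Cga-rich and Vip-rich cells the log2 ratio of Chga was 0.40, beside 1.01 with them, and within the Y class it was -0.045. Vip had 375 UMIs in dHet, all in the single Vip-rich cell, and 2 in control, and its log2 ratio without the Cga-rich and Vip-rich cells was -0.27. Txnip, a thioredoxin inhibitor that responds to glucose, was below the count minimum, with 61 UMIs in dHet and 18 in control (ratio 4.08, 2.38 to 7.34). Its log2 ratios were 1.38 and 1.60 within the Xist and Y classes. It was also higher in dHet other neurons, at a ratio of 2.04.

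Among genes lower in dHet, Rgs2, a regulator of G protein signalling, had 80.2 CPM in dHet and 142 in control (ratio 0.565, 0.455 to 0.699), beside 0.834 in other neurons. Pde10a, a cyclic nucleotide phosphodiesterase, had 75.2 and 138 CPM (0.544, 0.435 to 0.677), beside 0.801. Both were lower within each class, with log2 ratios of -0.85 and -0.67 for Rgs2 and -0.96 and -0.72 for Pde10a in the Xist and Y classes. Rrad, a small GTPase that inhibits calcium channels, had 18.0 CPM in dHet and 45.9 in control (0.392, 0.249 to 0.603), beside 0.618 in other neurons, with log2 ratios of -1.26 within the Xist class and -0.51 within the Y class. Tpm3-rs7, a tropomyosin gene copy whose reads may be shared with its parent gene, had a ratio of 0.330 in Tac2 neurons and 0.375 in other neurons, and its log2 ratios were -0.84 and -2.90 within the Xist and Y classes. Dlk2, Arpc4, Cmc4, Ppp1r12c, Prpf40b, Cox18, Nob1 and Hps4 completed the 12 lowest, with ratios between 0.488 and 0.528, and Cmc4 shares 43.5% of its exon bases with another counted gene. Of these 8, Arpc4, Ppp1r12c, Prpf40b and Cox18 stayed past 1.5-fold under all 11 alternatives, while Cmc4 had a log2 ratio of -0.24 when thinned, Dlk2 of -0.48 within the Y class, Hps4 of -0.48 and Nob1 of -0.55 with 2 or more of the 4 selection genes.

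Of 16 peptide processing genes, Vgf and Pcsk2 lay past 1.5-fold lower, beside 1.47% of all genes. Vgf, a granule protein and peptide precursor, had 159 CPM in dHet and 255 in control Tac2 neurons (ratio 0.623, 0.534 to 0.726), while other neurons had a ratio of 1.00. Its log2 ratio was -0.92 within the Xist class and -0.54 within the Y class. Pcsk2 stood at 0.596 (0.405 to 0.864), and its log2 ratio of -0.65 stayed past 1.5-fold under 6 of 11 alternatives, with -0.35 when 2 or more of the 4 selection genes were required. Gal was lower in dHet at 0.354, but 82.5% of its UMIs lay in 5 cells, among them the 4 cells with Gal and no glutamate transporter. Its log2 ratio of -1.37 was -0.095 without cells that had a Slc32a1 UMI and 0.064 with 2 or more of the 4 selection genes.

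Of 9 immediate early genes, Junb lay past 1.5-fold lower and none higher, beside 1.47% and 0.467% of all genes. The list's median log2 ratio was -0.25, beside -0.28 in other neurons. Junb had 46.6 CPM in dHet and 87.2 in control (0.535, 0.402 to 0.706), beside 0.425 in other neurons, with log2 ratios of -1.04 within the Xist class and -0.11 within the Y class, and Fos had a ratio of 0.666, beside 0.361. Egr4, below the count minimum, had 9 UMIs in dHet and 58 in control (0.187, 0.0814 to 0.380), beside 0.607 in other neurons, with log2 ratios of -2.14 and -0.35 within the Xist and Y classes.

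**Figure D5:**
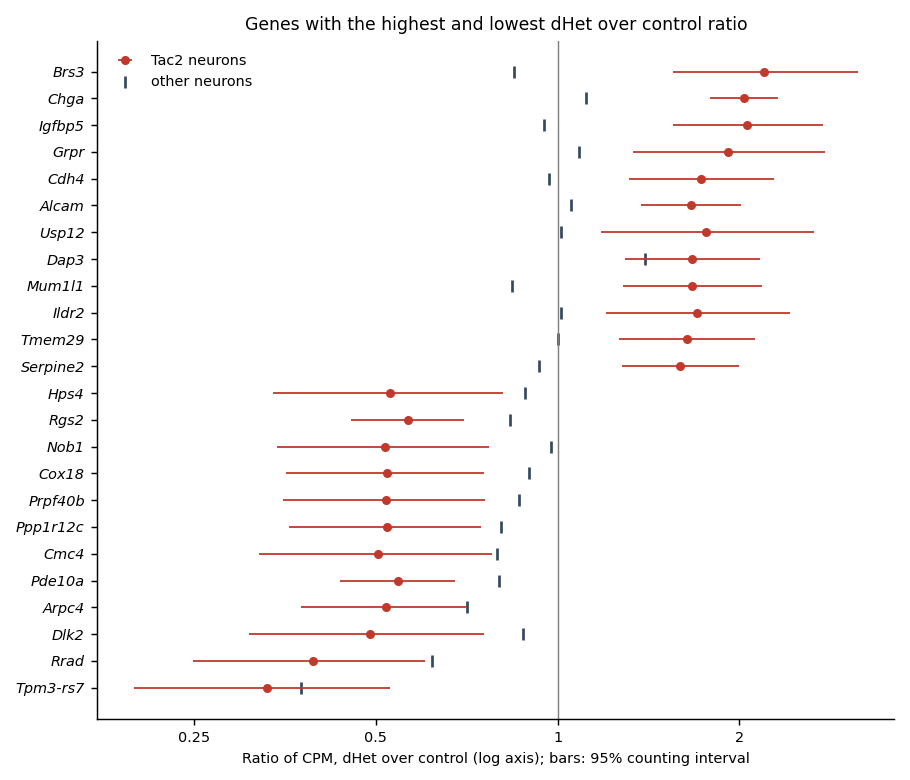
Ratio of CPM, dHet over control (x axis, logarithmic), in Tac2 neurons (points with 95% counting intervals) and in other neurons (ticks) for the 12 highest and 12 lowest genes by the naming rule (y axis). Among others, other neurons lie on the same side at 1.40 for Dap3, 0.707 for Arpc4, 0.618 for Rrad and 0.375 for Tpm3-rs7, and at 0.846 for Brs3, on the other side from its Tac2 neurons.

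Of the 7 leptin, insulin and feeding signal genes measured well enough, none had a log2 ratio past 1.5-fold. Over all genes 1.94% did. The list's median log2 ratio was -0.06. Npy1r, a neuropeptide Y receptor, had 24.9 CPM in dHet and 39.2 in control (0.634, 0.421 to 0.942). Its plain ratio was past 1.5-fold, but its log2 ratio with 5 CPM added, -0.57, was not. The insulin receptor Insr, below the count minimum, had 24 UMIs in dHet and 50 in control (0.578, 0.340 to 0.959). None of 20 respiratory chain, 20 immature neuron or 13 cholesterol synthesis genes had a log2 ratio past 1.5-fold in either direction. Nor did any of 11 heat shock, 18 ion channel or 22 transmitter receptor genes. The median log2 ratios of these 6 lists lay between -0.09 and 0.06.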

How the data were processed

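Reporter-positive cells of 2 libraries, 1 dHet and 1 control, were profiled with 10x Genomics 3′ v3 chemistry after papain digestion and sorting of viable cells, per the labels' protocols. The submitters' processing notes name Cell Ranger and mm10. Per the file headers, Cell Ranger 3.0.2 made the matrices. The deposited tables hold raw UMI counts per gene and cell. For the joint table of both libraries, which was analysed here, the cell filter and gene annotation are not stated in the sources used. Every column of it belongs to 1 of the 2 libraries.

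UMIs were summed over the cells of a class and divided by the class total (CPM). For log2 ratios 5 CPM was added above and below, which understates the change of low genes, and plain ratios carry exact conditional binomial intervals. Genes were called past 1.5-fold or 2-fold by the log2 ratios. Sums carry exact Poisson and shares exact Clopper-Pearson intervals. UMIs are not independent across cells, and all intervals cover counting error only. With 1 library per genotype there was no test. Genes needed 100 UMIs over the Tac2 neurons of both libraries. Named genes are the 12 highest and 12 lowest dHet over control ratios, the 15 highest over other neurons, the 6 highest and 6 lowest with Kiss1 over without (some printed), up to 4 of each of 18 gene lists, and marker, selection, sex-linked and Iroquois genes. Ranked genes also needed a UMI in 10% of cells of 1 library and under 30% of their UMIs in 5 cells. Genes ranked by Tac2 level or by the Xist and Y classes were chosen from these data. The selection of cells and the lists were chosen with earlier results of these data known. Doublets were called per library with Scrublet in scanpy 1.11.5 at an expected 4%, which marked 21 dHet (0.533%) and 23 control cells (0.661%). They stayed in, and were left out as an alternative. Gene positions and exons came from GENCODE M21 on GRCm38, the assembly behind mm10. The ratios and intervals were run on simulated independent Poisson counts, the model that the intervals assume. That run cannot show how they behave where UMIs gather in few cells. Alternatives by class, cell kind or route gene were chosen after seeing the data. Of the genes named by the rule, 1 is not reported here.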

Additional observations from a re-analysis of the deposited data

Results flagged for a closer look

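Dlk1, a Notch ligand-like gene linked to the timing of puberty, had opposite genotype ratios in the 2 sex classes of Tac2 neurons. Its log2 ratio of dHet over control was 1.29 in the Xist class and -2.82 in the Y class. The difference between the classes was not tested. Over all Tac2 neurons Dlk1 had 100 UMIs in dHet and 58 in control, and 54.4% of these lay in 5 cells. The 3 control cells with Slc32a1 and no Slc17a6 held 5, 14 and 15 of the control UMIs. The 2 such dHet cells held 10 and 2, and the Vip-rich dHet cell held 17. Without cells that had a Slc32a1 UMI its log2 ratio over both classes was 1.33, beside 0.94 with them. Within the Y class, the log2 ratios of Gad2, Slc32a1, Gal and Gad1 were -3.24, -2.50, -2.62 and -0.40. Within the Xist class they were 0.090, 0.32, -1.29 and 0.084. The part of cells with a Slc32a1 UMI in the class ratios was not tested.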

How the results depend on the processing

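No paired analysis was possible because each genotype is 1 library with no replicate number, and for the same reason no replicate could be left out. Of 107 named genes, 75 kept the sign of their dHet over control ratio under all 11 alternatives. Among named genes past 1.5-fold, the log2 ratios that changed sign within the Y class were Vip -0.37, Isl1 -0.66, Chga -0.045, Dlk1 -2.82, Ier2 -0.60, Six6 -1.58, Serpine2 -0.013, Grik1 -0.010 and Hspa1b 0.80. Vip was -0.23 within the Xist class, -0.30 without cells with a Slc32a1 UMI and -0.27 without the Cga-rich and Vip-rich cells, where Ier2 was -0.78. Gal was 0.064 with 2 or more of the 4 route genes. The cause was not tested.

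The 26 genes higher and 82 lower past 1.5-fold became 14 and 19 with 20 CPM added, 45 and 127 with cells weighted equally, 15 and 48 at 8000 UMIs per cell (2831 genes tested), and 152 and 276 with 30 UMIs as the minimum (9271 genes tested), and 43 were higher under the median of ratios. The ratio of shares among neurons lay below 1 under the 8 alternatives, from 0.641 in the Xist class (0.439 to 0.938) to 0.847 of all cells. Its interval also left out 1 with the selection made on thinned cells (0.665, 0.484 to 0.911), with 2 route genes (0.704, 0.501 to 0.988) and with Tac2 at 20 (0.711, 0.512 to 0.985).

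Thinning to 8000 UMIs lowered shares of cells with a UMI, to 28.4% in dHet and 45.7% in control for Tacr3, 73.9% and 72.3% for Esr1, 36.4% and 38.3% for Nr5a2, 64.8% and 75.5% for Nhlh2, 22.7% and 26.6% for Pdyn, and in control 89.4% for Slc17a6 and 3.19% for Kiss1. The log2 Xist over Y class ratio of Tac2 was 0.65 in dHet and 0.79 in control with Tac2 at 20, 0.95 in dHet whatever the route genes, and 0.88 in control thinned. Thinned, with the classes called on the thinned counts, Esr1 was 0.61 in dHet and 0.50 in control, and C1ql1 -0.025 in dHet.

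With 93 and 97 cells, genes under about 100 UMIs have wide intervals, and variation between animals could not be measured.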

Other observations

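The Tac2 neurons with a Kiss1 UMI, 6 in dHet and 8 in control, were set against those without, although the Kiss1 count is uncertain and few UMIs stand behind each value. The unfolded protein response gene Dnajb9 had 144 CPM with Kiss1 and 63.8 without in dHet, and 166 and 69.8 in control. Nefm had 164 CPM with Kiss1 and 65.1 without in dHet, and 154 and 75.5 in control. Rab9b had 116 and 53.8 CPM in dHet and 114 and 46.5 in control. Lower with Kiss1 were Mta1, with 0 and 37.9 CPM in dHet and 17.1 and 56.2 in control, and Wdr34, with 9.63 and 45.8 CPM in dHet and 11.4 and 49.9 in control. The genes were ranked on this same contrast, so these values describe the cells without a test.

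Kiss1 UMIs lay in 5 cells of the Xist class and 0 of the Y class in dHet, with 1 in neither, and in 6 and 2 in control. Among neurons of the Xist class, Tac2 neurons made up 3.09% in dHet and 4.82% in control, a ratio of 0.641 (0.439 to 0.938). Among neurons of the Y class they made up 2.61% and 3.14%, a ratio of 0.831 (0.470 to 1.45).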
